A study of Mus musculus with 8 samples.

Results

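S100 calcium-binding proteins were described at the mRNA level in the mouse medullary thymic epithelial cell (mTEC) line mTEC 3.10 and in an Aire mutant clone derived from it. The genes were chosen by symbol, with earlier results of these data known, and not by a rule on any measured value. They were S100a1, S100a3, S100a4, S100a6, S100a8, S100a9, S100a10, S100a11, S100a13 and S100a16, which are 10 of the 24052 gene symbols counted in every library. RNA-Seq was made of WT mTEC 3.10 cells and of clone E6, each before and after adhesion of thymocytes, which gave 8 libraries from 4 conditions of 2 replicates. The line and the thymocytes come from C57BL/6 mice, and all cells were at passage 2. The labels call the genotype of E6 Aire +/-, a heterozygous KO, while the study's methods describe Crispr-Cas9 mutations in both Aire alleles. E6 is a single clone, so an effect of Aire and a trait of this clone cannot be told apart. For adhesion, thymocytes were kept with the mTECs for 12 h at 50 thymocytes per mTEC, adherent thymocytes were washed off with PBS, and the mTECs were trypsinized. The mTECs were cultured for 12 h or 24 h, and this time differed between replicates of every condition except WT before adhesion. The protocol text of the E6 libraries before adhesion speaks of co-culture, against their titles and source names, which were followed here. The labels do not say whether the libraries of a condition came from separate cultures, so p-values measure only the spread between these libraries, which may be technical.

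S100 proteins are small EF-hand proteins found only in vertebrates. They mostly act as dimers that bind calcium, change shape and then hold a target protein such as an annexin, a myosin or an enzyme, and some are also released from cells and act on surface receptors. In epithelia they are known from the cell border, the cytoskeleton and keratinocyte differentiation, and most of their genes lie side by side with those of the cornified envelope in the epidermal differentiation complex.

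Counts on genes ranged from 13506610 to 20145154 per library, and levels are given as CPM, counts relative to the library total after TMM scaling. The floor of 3 counts was 0.145 to 0.221 CPM on this scale, and floors cover counting error only. Aire had 0 counts in 6 libraries and 3 counts in replicate 2 of WT and of E6 after adhesion, which is no check of the genotype because a short mutation need not lower the mRNA. The epithelial genes Epcam, Cdh1, Krt8, Krt18, Krt14 and Cldn4 were detected in every library, whereas the mTEC genes Aire and Fezf2 were at or below the floor. Of the other listed markers of these cells, Trp63 was at 2.90 to 5.20 CPM and Krt5 at 0.213 to 1.02 CPM. Cd80 had at most 4 counts. H2-Aa had 0 counts before adhesion, 2 and 1 counts in WT after adhesion and 19 counts in each E6 library after adhesion. Replicate 1 of WT after adhesion stood apart. Of its alignments 66.7% were counted on genes, against 75.7% to 78.8% elsewhere, 13.8% of its tested genes lay at least 2-fold from the mean of the other 7 libraries, against 2.99% to 5.61%, and its levels fell by 0.46 on the log2 scale per 10% of GC content, against slopes of -0.02 to 0.13. The log2 FC of each member between E6 and WT is therefore given with and without this library, as are the other results that it moves.

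All 10 genes lay on chromosome 3 of GRCm38 (mm10), in 2 groups. The first group held S100a1, S100a13, S100a16, S100a3, S100a4, S100a6, S100a8 and S100a9 within 184.688 kb, from 90511034 to 90695721. The second held S100a11 and S100a10 within 44.156 kb, from 93520488 to 93564643. S100a1 and S100a9 were on the minus strand and the other 8 genes on the plus strand. S100a1 and S100a13 pointed away from each other and their GENCODE vM21 starts left only 42 bases between them, while S100a3 and S100a4 were 1068 bases apart. S100a4 shares 51.7% of its exon bases with an annotated readthrough transcript model on the same strand, Gm42674, for which no count was used here, so how such reads were assigned was not tested.

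The bases before the starts of the members that the results turn on are shown to let their upstream sequences be compared, because S100a1 and S100a13 share theirs and because S100a11 moved against S100a4 and S100a6 in 1 library. They were taken from RefSeq (GRCm38.p6) and stop before the first base of the annotated transcripts. Capitals mark matches, on either strand, to 4 motifs. The TATA box was searched as TATAAA and the CCAAT box by the letters of its name. For the GC box the letters were GGGCGG, and for the AP-1 motif they were TGANTCA. The 42 bases between S100a1 and S100a13 (chr3:90514393-90514434, plus strand) were these.
S100a1-S100a13: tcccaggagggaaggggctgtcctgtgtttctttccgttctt
The 250 bases before S100a4 (chr3:90603520-90603769, plus strand) and the 238 bases before S100a6 (chr3:90612644-90612881, plus strand) were these.
S100a4: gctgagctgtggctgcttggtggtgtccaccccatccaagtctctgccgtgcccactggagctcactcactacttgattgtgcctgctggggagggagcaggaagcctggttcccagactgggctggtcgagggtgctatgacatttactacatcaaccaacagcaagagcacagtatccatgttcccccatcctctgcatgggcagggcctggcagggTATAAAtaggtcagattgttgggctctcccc
S100a6: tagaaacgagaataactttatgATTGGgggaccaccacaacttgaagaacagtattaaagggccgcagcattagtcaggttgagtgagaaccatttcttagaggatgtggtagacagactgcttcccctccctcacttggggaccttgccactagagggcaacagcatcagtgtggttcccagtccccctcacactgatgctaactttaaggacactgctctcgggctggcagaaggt
The 242 bases before S100a11 (chr3:93520246-93520487, plus strand) were these.
S100a11: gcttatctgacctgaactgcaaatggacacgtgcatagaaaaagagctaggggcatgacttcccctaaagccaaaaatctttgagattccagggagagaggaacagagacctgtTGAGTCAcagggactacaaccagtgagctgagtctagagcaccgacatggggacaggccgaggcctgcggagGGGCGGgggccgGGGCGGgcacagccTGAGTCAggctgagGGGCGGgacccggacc

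The stretch of S100a11 held 3 GC boxes, at 187, 199 and 227 bases from its first base, and 2 AP-1 matches, at 115 and 213 bases. None of these matches overlapped another. That of S100a4 held 1 TATA box, whose first base was the 31st from the end of the stretch, and no other match. That of S100a6 held 1 CCAAT box, read on the minus strand, and the stretch between S100a1 and S100a13 held no match. Over the 250 bases before each start in 32851 RefSeq windows, 32.7% held a GC box, 6.75% an AP-1 match, 12.4% a TATA box and 33.9% a CCAAT box. The window of S100a11 held 11 CpG, against a median of 6 over all windows and 2 and 3 in those of S100a4 and S100a6. Members not printed also had matches. A window of S100a16 held 1 GC box and 1 AP-1 match. S100a3 had a window with 1 GC box and another with 1 TATA box and 1 CCAAT box. Both members were lower in replicate 1 of WT after adhesion, the library in which S100a11 was higher. Such matches are letters in a window and not sites of binding, and their part in the levels was not tested.

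Members were compared with each other per kilobase of exon, since a longer mRNA collects more reads. S100a11 stood first, with 1986 ± 1171 CPM per kb (SD, n = 8), or 1575 ± 159 (n = 7) without replicate 1 of WT after adhesion. S100a10 followed with 439 ± 48.1, S100a6 with 332 ± 85.2, S100a1 with 157 ± 18.9, S100a16 with 129 ± 16.1, S100a4 with 92.7 ± 25.8 and S100a13 with 32.7 ± 6.35 CPM per kb (n = 8 each). Without that library S100a10 was at 441 ± 51.4, S100a6 at 359 ± 38.1, S100a1 at 155 ± 18.8, S100a16 at 134 ± 10.8, S100a4 at 99.2 ± 19.5 and S100a13 at 33.2 ± 6.67 CPM per kb (n = 7 each), in the same order. S100a3 reached 0.340 ± 0.162 CPM per kb, or 0.387 ± 0.101 without it, and S100a9 and S100a8 came last.

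The ranges over the 8 libraries did not overlap between S100a11 and S100a10, between S100a4 and S100a13, or between S100a13 and S100a3. The other neighbours in this order overlapped. Within single libraries S100a10 exceeded S100a6, S100a1 exceeded S100a16, and S100a16 exceeded S100a4 in 8 of 8 libraries, and S100a6 exceeded S100a1 in 7, the exception being replicate 1 of WT after adhesion. The order of S100a1 and S100a16 depended on the length used. With the longest transcript in place of all exons, S100a16 stood at 185 ± 23.2 and S100a1 at 161 ± 19.3 CPM per kb, and S100a16 was the higher in 7 of 8 libraries. Together the 10 members made up 0.196% to 0.239% of the counts on genes of 7 libraries and 0.330% in replicate 1 of WT after adhesion. S100a11 gave 31.8% to 40.4% of that sum in the 7 libraries and 70.6% in the remaining one.

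**Figure D1:**
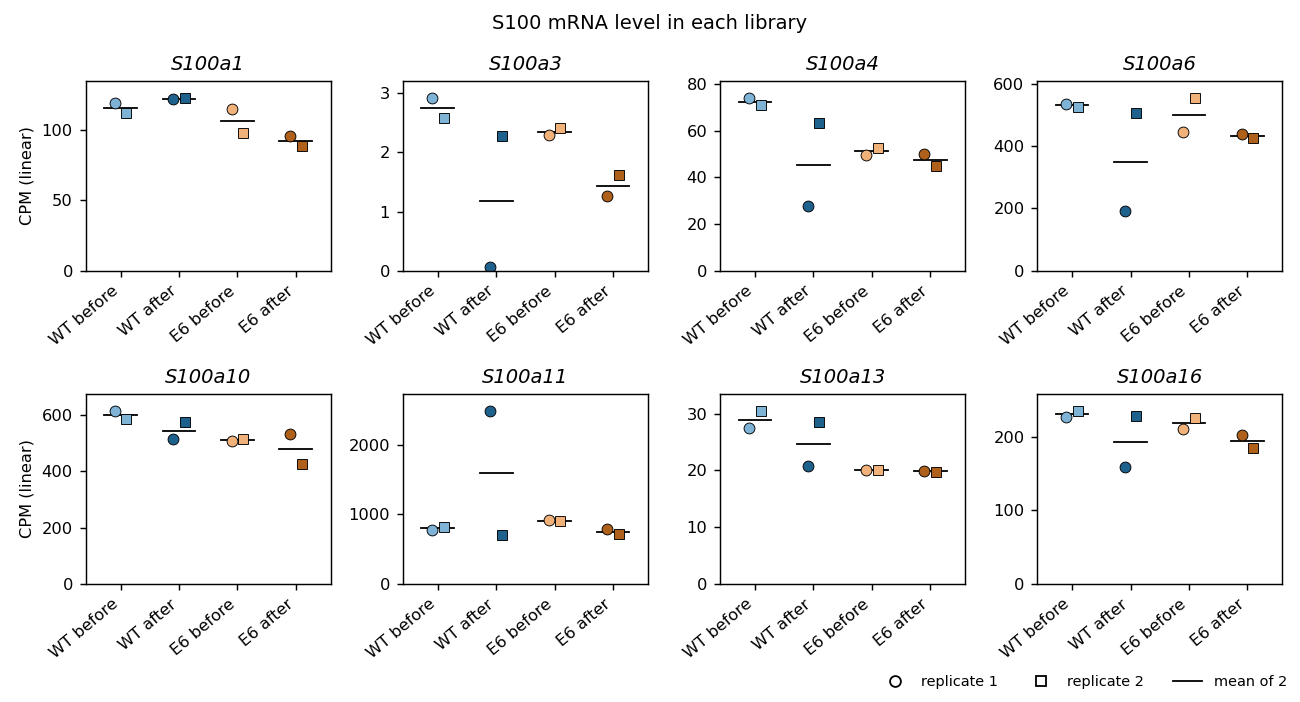
CPM (linear axis from 0) of the 8 tested S100 mRNAs in the 4 conditions, with a circle for replicate 1, a square for replicate 2 and a line for their mean. Replicate 1 of WT after adhesion lies at 2484 CPM for S100a11, above all other libraries, and at 191 CPM for S100a6 and 27.6 CPM for S100a4, below them, whereas the 4 E6 libraries of S100a13 lie between 19.8 and 20.1 CPM, under all 4 WT libraries.

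The first comparison was that of E6 with WT, averaged over both adhesion states, which asks what differs between the mutant clone and its parent line. S100a13 mRNA was 1.34 times lower in E6, and no other member passed an FDR of 0.05. With the study's further limit of a fold change (FC) of 1.5, none of the 8 members that passed the filter on low counts was a DE mRNA (FDR under 0.05 and FC of at least 1.5), against 11.3% of the 11672 genes tested. By edgeR's quasi-likelihood test 2 of the 8 had an unadjusted p under 0.05, and DESeq2 also called 0 and gave 2. The median log2 FC of the 8 members was -0.21, with 7 below 0, and that of all tested genes was -0.01. Fewer cells of a type and less mRNA per cell cannot be told apart in such bulk libraries.

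S100a13, a partner in the release of FGF1 and IL1A from cells, was at 27.4 and 30.4 CPM in WT before adhesion and at 20.8 and 28.5 CPM in WT after adhesion. In E6 it was at 20.1 CPM in both libraries before adhesion and at 19.9 and 19.8 CPM after it. All 4 E6 libraries were below all 4 WT libraries, as was true in one direction or the other of 31.2% of the genes tested, but the WT library nearest to them was replicate 1 after adhesion. The means were 26.8 ± 4.17 CPM in WT and 19.98 ± 0.181 CPM in E6 (SD, n = 4 each). The log2 FC was -0.42 (SE 0.12, 95% interval -0.70 to -0.13, edgeR FDR 0.0479), and 20.9% of genes passed this FDR without the FC limit, with 10.7% of all genes lower in E6 at this FDR. DESeq2 gave an FDR of 0.0334. Without replicate 1 of WT after adhesion the log2 FC was -0.50 and the FDR 7.5e-06, and without replicate 2 it was -0.28 with an FDR of 0.00492. Leaving out any of the other 6 libraries ended the call, with an FDR of 0.125 without WT before replicate 1, 0.184 without WT before replicate 2, 0.154 and 0.158 without replicates 1 and 2 of E6 before, and 0.157 and 0.162 without replicates 1 and 2 of E6 after. With no filter on low counts the FDR was 0.0789.

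S100a1, best known from heart and skeletal muscle where it acts on the calcium pump and the calcium release channel, starts 42 bases away from S100a13 on the other strand. Its levels were 119 and 112 CPM in WT before adhesion, 122 and 123 CPM in WT after adhesion, 115 and 97.6 CPM in E6 before adhesion and 96.0 and 88.8 CPM in E6 after adhesion. Replicate 1 of E6 before adhesion lay within the WT range and the other 3 E6 libraries lay below it. The log2 FC was -0.26 (SE 0.09, 95% interval -0.46 to -0.06, FDR 0.0688), short of the threshold. Without replicate 1 of WT after adhesion it was -0.25 with an FDR of 0.000723, and with the GC correction -0.34 with an FDR of 0.0344.

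S100a4, which binds nonmuscle myosin and is known from motile and invasive cells, was at 73.9 and 71.0 CPM in WT before adhesion, 27.6 and 63.3 CPM in WT after adhesion, 49.7 and 52.7 CPM in E6 before adhesion and 50.0 and 44.98 CPM in E6 after adhesion. Of the 4 WT libraries 3 were above all E6 libraries and replicate 1 after adhesion was below them all. The log2 FC was -0.22 (SE 0.23, 95% interval -0.76 to 0.32, FDR 0.536). Without that library it was -0.44 (SE 0.06, 95% interval -0.56 to -0.32, FDR 9.04e-07), or a level in E6 of 0.737 times that in WT.

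S100a6, or calcyclin, which binds annexins and the ubiquitin ligase adaptor encoded by Cacybp, was at 537 and 527 CPM in WT before adhesion, 191 and 505 CPM in WT after adhesion, 445 and 554 CPM in E6 before adhesion and 440 and 428 CPM in E6 after adhesion. Replicate 1 of WT after adhesion lay below the other WT libraries, and replicate 2 of E6 before adhesion lay above the other E6 libraries. Its log2 FC was 0.11 (95% interval -0.52 to 0.74, FDR 0.807), and without replicate 1 of WT after adhesion it was -0.14 (FDR 0.0291), so that 1 library decided the sign.

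S100a10, an S100 protein that does not need calcium and sits on annexin A2 at the plasma membrane, was at 612 and 584 CPM in WT before adhesion, 513 and 573 CPM in WT after adhesion, 507 and 512 CPM in E6 before adhesion and 532 and 424 CPM in E6 after adhesion. The groups overlapped. The log2 FC was -0.21 (95% interval -0.44 to 0.03, FDR 0.186) and, without replicate 1 of WT after adhesion, -0.23 (FDR 0.00103).

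S100a11, which pairs with annexin A1 and takes part in growth control of keratinocytes, was at 783 and 815 CPM in WT before adhesion, 2484 and 711 CPM in WT after adhesion, 915 and 905 CPM in E6 before adhesion and 789 and 716 CPM in E6 after adhesion. A single library held more than any other, and the remaining 7 lay between 711 and 915 CPM. Accordingly the log2 FC was -0.45 (95% interval -1.23 to 0.33, FDR 0.38) with all libraries and 0.15 (95% interval 0.07 to 0.24, FDR 0.00365) without that one. S100a11 was then the only one of the 8 members with a log2 FC above 0.

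S100a16, a broadly expressed member, was at 227 and 234 CPM in WT before adhesion, 158 and 227 CPM in WT after adhesion, 211 and 226 CPM in E6 before adhesion and 202 and 185 CPM in E6 after adhesion. Its log2 FC was -0.04 (95% interval -0.32 to 0.25, FDR 0.871), and -0.14 without replicate 1 of WT after adhesion (FDR 0.0121). S100a3, known from the hair cuticle, was the lowest of the tested members, with 21 to 48 counts in 7 libraries. Its levels were 2.91 and 2.58 CPM in WT before adhesion, 0.0709 and 2.27 CPM in WT after adhesion, 2.29 and 2.41 CPM in E6 before adhesion and 1.26 and 1.61 CPM in E6 after adhesion. The lowest of these values was a single count, below the floor of 3. Its interval, -1.35 to 1.30 around a log2 FC of -0.03, was the widest of the 8, and without that library the log2 FC was -0.43 (FDR 0.103).

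S100a8 and S100a9, the subunits of calprotectin, which neutrophils carry in bulk, did not pass the filter. Replicate 1 of E6 after adhesion held 1 count of S100a8 and 2 counts of S100a9, and the other 7 libraries held 0 counts of each. All values were below the floor, so no difference was detectable at this depth. In both E6 libraries after adhesion the summed level of 12 neutrophil markers was 2.45 and 2.63 CPM, against at most 0.581 CPM elsewhere. Most of it was Mmp9, at 1.02 and 1.14 CPM, and Itgam, at 0.599 and 0.717 CPM. Mpo, Prtn3, Ltf, Ngp, Csf3r and Mmp8 had at most 5 counts in any library. Elane, Camp, Cxcr2 and Retnlg were at 0 in all 8 libraries. Whether neutrophils were present was not tested.

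**Figure D2:**
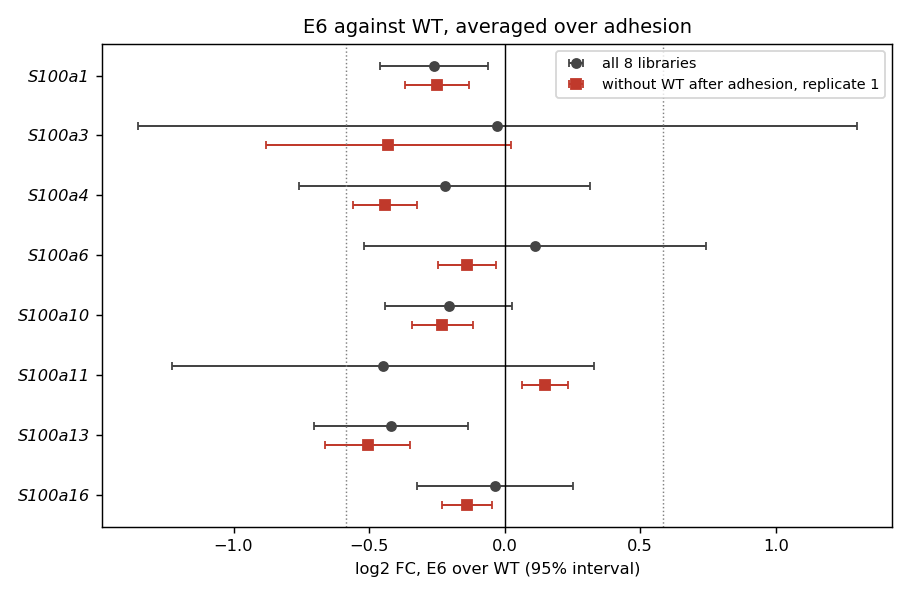
Log2 FC of E6 over WT averaged over adhesion, with 95% intervals, for the 8 tested S100 mRNAs from all 8 libraries (circles) and without replicate 1 of WT after adhesion (squares), dotted lines marking an FC of 1.5 either way. With all libraries the interval of S100a13, -0.70 to -0.13, and that of S100a1, -0.46 to -0.06, stay below 0, and without that library 6 members lie below 0 and S100a11 above it at an FDR under 0.05.

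Without replicate 1 of WT after adhesion, 7 of the 8 members passed an FDR of 0.05, 6 of them lower in E6 and S100a11 higher, and none reached an FC of 1.5. In the same fit 53.9% of the 11892 genes tested passed this FDR, 25.9% lower in E6, and 13.2% were DE mRNAs. The largest change among the members was then the 1.42-fold lower level of S100a13. The intervals of S100a1, S100a4, S100a6, S100a10, S100a11 and S100a16 lay wholly within an FC of 1.5 in this fit, and those of S100a3 and S100a13 reached beyond it. Of the 13 mesenchymal markers listed, Fn1 was higher in every E6 library than in any WT library. The sum of the 13 was 5434 to 5772 CPM in WT and 8731 to 9900 CPM in E6, nearly all of it Fn1. Pdgfra, Pdgfrb, Acta2 and Col3a1 were below 0.4 CPM in every library. The other markers shared no direction. Cdh2 was at 0.0709 to 0.789 CPM in WT and 0 in E6, while Vim reached 3.23 and 3.88 CPM in E6 after adhesion, against at most 0.922 CPM elsewhere. The part of these genes in the S100 differences was not tested.

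The single comparisons before and after adhesion, with 2 libraries against 2, called no member by edgeR. Before adhesion 5.01% of all genes were DE mRNAs, and 1 member, S100a13, had an unadjusted p under 0.05 (log2 FC -0.52, FDR 0.131). The libraries of S100a3, S100a4, S100a10, S100a11, S100a13 and S100a16 did not overlap, as held for 70.9% of all genes. Without replicate 1 of WT after adhesion, which enters this comparison only through the shared estimate of the spread, S100a4 (log2 FC -0.50, FDR 8.52e-06), S100a13 (-0.52, FDR 0.000198), S100a10 (-0.23, FDR 0.0096) and S100a11 (0.19, FDR 0.00508) passed the FDR, as did 43.8% of the genes tested. After adhesion 8.91% were DE mRNAs, and S100a1 alone had an unadjusted p under 0.05 (log2 FC -0.40, FDR 0.0758). Without replicate 1, which leaves a single WT library, S100a1 (-0.38), S100a4 (-0.38), S100a10 (-0.23), S100a13 (-0.49) and S100a16 (-0.20) passed the FDR after adhesion, as did 42.8% of the genes tested. DESeq2 called 0 members in both, with 1 unadjusted p under 0.05 before and 2 after.

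The second comparison was that of cells after with cells before adhesion of thymocytes, which asks how contact with thymocytes changes the mTEC mRNAs. No member was DE in WT, in E6 or on average, and none had an unadjusted p under 0.05 by edgeR. DESeq2 called 0 as well and gave 2 unadjusted p under 0.05 in WT and 0 in the other comparisons. Over all genes 1.89% were DE mRNAs on average, 2% in E6 and 0% in WT. The median log2 FC of the 8 members was -0.17 on average, -0.24 in WT and -0.19 in E6, and that of all genes 0.0042, 0.020 and -0.024.

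Libraries after adhesion also held thymocyte mRNAs. Of 19 thymocyte markers listed 11 were matched, none at 0 in all libraries, and their sum was 0.268 to 0.832 CPM before adhesion, 10.4 to 11.6 CPM in WT after adhesion and 67.6 to 83.3 CPM in E6 after adhesion. Their part in the S100 levels was not tested.

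Among the members S100a11 had the highest log2 FC in WT, 1.00 (95% interval -0.11 to 2.11, FDR 0.62), carried by the 2484 CPM of replicate 1. In E6 its log2 FC was -0.27, from 915 and 905 CPM before to 789 and 716 CPM after adhesion, and these libraries did not overlap, as held for 55.1% of all genes. Without replicate 1 of WT after adhesion S100a11 was -0.17 in WT (FDR 0.132), -0.25 in E6 (95% interval -0.36 to -0.14, FDR 0.00195) and -0.21 on average (FDR 0.00112). It was the only member to pass the FDR in that fit, in which 12.7% of all genes passed on average and 12.1% in E6. Its level in E6 after adhesion was 0.842 times that before in this fit, short of an FC of 1.5.

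With all libraries the log2 FC was below 0 for all 8 members in E6 and for 6 of 8 in WT, the exceptions being S100a1 (0.08) and S100a11. The lowest in WT were those of S100a3, S100a4 and S100a6. In WT these were -1.11, -0.67 and -0.61, and in E6 -0.71, -0.11 and -0.20, with every interval reaching 0. Without replicate 1 of WT after adhesion the WT values were -0.28, -0.20 and -0.08. In E6 S100a3 had 33 and 45 counts before and 21 and 27 counts after adhesion, and did not pass the test (FDR 0.152 in the fit without that library). S100a13 stood at -0.02 in E6, with a 95% interval of -0.43 to 0.38, and at 0.0042 without that library.

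**Figure D3:**
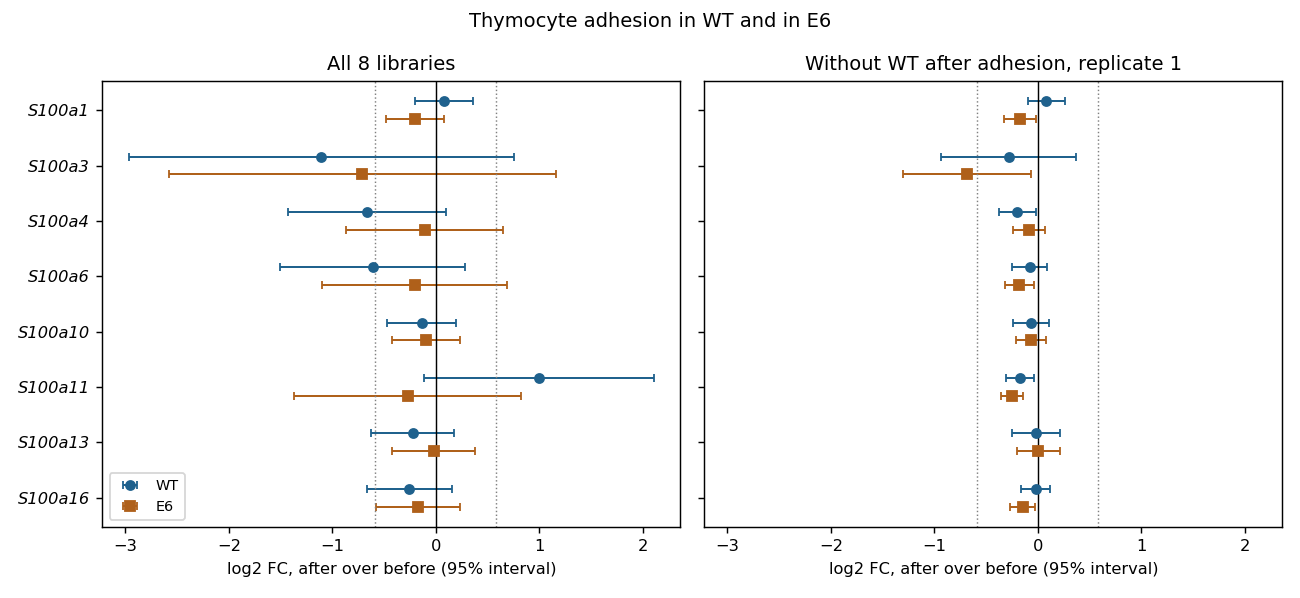
Log2 FC of cells after over cells before adhesion, with 95% intervals, for the 8 tested S100 mRNAs in WT (circles) and E6 (squares), from all 8 libraries on the left and without replicate 1 of WT after adhesion on the right, dotted lines marking an FC of 1.5. The WT value of S100a11 is 1.00 on the left and -0.17 on the right, beside -0.27 and -0.25 in E6.

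The difference between the adhesion effects, that in E6 minus that in WT, was tested as an interaction. It called 0 members and 0% of all genes by edgeR, with no member at an unadjusted p under 0.05. DESeq2 called 0 members and gave 1 unadjusted p under 0.05. The largest was that of S100a11, -1.27 (95% interval -2.83 to 0.29, FDR 0.988), which came to -0.08 (95% interval -0.24 to 0.09, FDR 0.729) without replicate 1 of WT after adhesion. The intervals of the other members in that fit ran from -1.31 to 0.50 for S100a3, and lay between -0.49 and 0.35 for S100a1, S100a4, S100a6, S100a10, S100a13 and S100a16.

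Replicate 1 of WT after adhesion thus shifted members in both directions. Against the mean of the other 7 libraries S100a11 was 3.10 times higher (log2 difference 1.63), and 141 of the 11672 tested genes were raised as far. S100a3 was lower by 3.54 on the log2 scale, as far as 4 of the tested genes, itself included, and this rested on 1 count. S100a6 stood at -1.35, as low as 365 genes, and S100a4 at -1.04, as low as 786 genes. S100a16 stood at -0.45, S100a13 at -0.17, S100a10 at -0.05 and S100a1 at 0.19. The GC content of the longest transcripts of S100a11, S100a3, S100a4 and S100a6 was 49.5%, 48.4%, 49.2% and 52.0% in that order. That of S100a16, S100a13, S100a10 and S100a1 was 56.1%, 54.4%, 51.4% and 53.9%. With the GC correction the largest absolute log2 FC of any member in E6 against WT after adhesion was 1.08, beside 1.09 without it. For the difference of the adhesion effects it was 1.26, beside 1.27. The members' median log2 FC moved more. In E6 against WT after adhesion it was -0.19 with the correction, beside -0.09 without it. For adhesion in WT it was -0.12, beside -0.24, and for E6 against WT on average -0.23, beside -0.21. The part of GC content in the shifts of this single library was not otherwise tested. This library was cultured for 12 h and its replicate for 24 h, and the 4 other libraries cultured for 12 h held 783, 815, 905 and 716 CPM of S100a11. None of these 4 was a WT library after adhesion. Within that condition culture time and replicate cannot be told apart, and the part of culture time was not tested.

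With replicate 1 as the only WT library after adhesion, the lone library being assumed to vary like the others, 4 members became DE mRNAs. For adhesion in WT these were S100a11 (log2 FC 1.62), S100a3 (-5.14), S100a4 (-1.41) and S100a6 (-1.49), where 29.8% of all genes were DE mRNAs. The same 4 were called in E6 against WT after adhesion, where 37.7% were, in adhesion on average (11.2%) and in the difference of the adhesion effects (25.6%), and S100a11 and S100a3 in E6 against WT on average (21.4%).

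**Figure D4:**
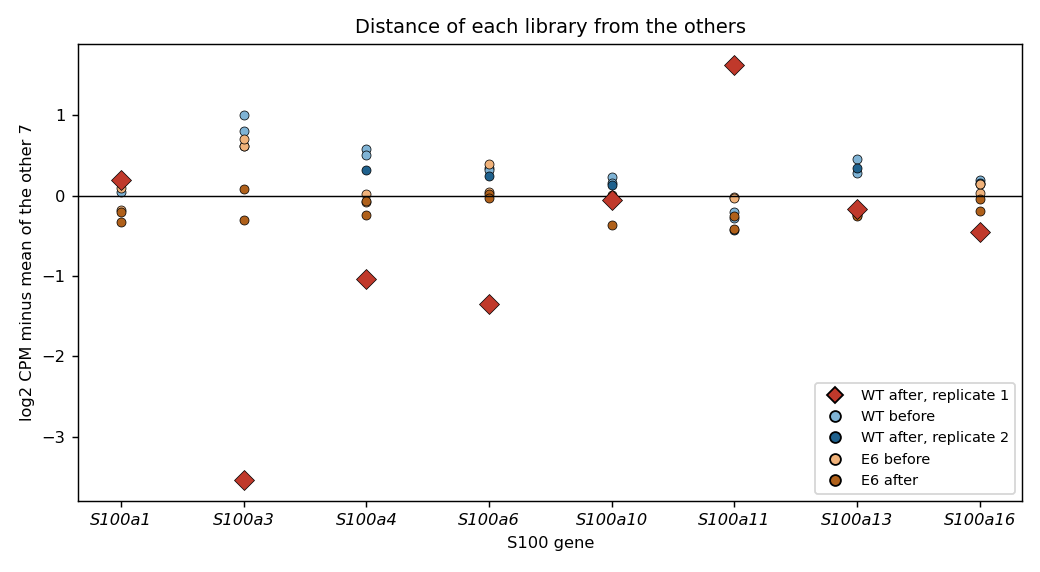
Log2 CPM of each library minus the mean of the other 7, for the 8 tested S100 mRNAs, with replicate 1 of WT after adhesion as a diamond and the other libraries as circles coloured by condition. The diamond lies at 1.63 for S100a11 and at -1.04, -1.35 and -3.54 for S100a4, S100a6 and S100a3, outside the other libraries, and among them for S100a1, S100a10 and S100a13.

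Pairs of members were compared as well. Over the 8 libraries the Pearson correlations of the log2 CPM of member pairs ran from -0.92 to 0.98, and they share depth and the library that stands apart. S100a11 and S100a6 were at -0.92 with all libraries and at 0.23 without replicate 1 of WT after adhesion, whereas S100a4 and S100a13 were at 0.70 and 0.93. S100a1 and S100a13, the neighbours that point away from each other, were at 0.58 and 0.73. Such values were not particular to these neighbours. With S100a10, which lies in the other group, S100a13 was at 0.78 and 0.78 and S100a1 at 0.69 and 0.79. The genes most like S100a11 over the 8 libraries were Chmp3 (r = 0.996), Ranbp1 (0.996) and Arcn1 (0.995), at 0.93, 0.92 and 0.91 without that library. Those most like S100a13 were Pltp (0.997), Ddt (0.993) and Mknk2 (0.991), at 0.997, 0.993 and 0.991 without it. All were picked as the highest among the tested genes outside the members, so values near 1 follow from the choice. The values without that library reuse libraries on which the choice was made and are no separate check. Pltp, which transfers phospholipids between lipoproteins, was at 4.86, 5.97, 2.48 and 5.56 CPM in the WT libraries and at 2.29, 2.36, 2.27 and 2.39 CPM in those of E6.

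All members lie on chromosome 3. On this chromosome as a whole 116 of 556 tested genes, 20.9%, were DE mRNAs in E6 against WT on average, beside 11.3% of all tested genes, and the median log2 FC was -0.14 beside -0.01. When replicate 1 of WT after adhesion was left out, 104 of 573 genes of the chromosome, 18.2%, were DE mRNAs, beside 13.2% of all, and the median log2 FC was -0.098 beside 0.015. Whether the chromosome differs from the others was not tested.

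Other members of the family and of the pathway were taken from the lists of partners and relatives. The files held 17 S100 symbols in all. Of the 7 outside the members, S100a14 was at 265 to 439 CPM, its lowest library being replicate 1 of WT after adhesion, and did not pass the test between E6 and WT (log2 FC 0.08, FDR 0.748, and -0.059 with an FDR of 0.195 without that library). S100a7a was at 0.194 to 0.709 CPM and S100a2 at 0.0737 to 0.729 CPM. S100a5 had 1 count in 1 library, and S100b, S100g and S100z had 0 counts in all 8. Of 26 binding partners and targets 20 were tested. In E6 against WT on average 1 was DE and higher and 1 DE and lower, beside 11.3% of all genes tested that were DE mRNAs in either direction. Il1a, the cytokine released with S100a13, was at 0.939 ± 0.849 CPM in WT and 2.51 ± 1.91 CPM in E6 (log2 FC 1.42, FDR 0.0262, and 1.75 with an FDR of 9.27e-05 without replicate 1 of WT after adhesion). It was also the only gene of the lists that was DE upon adhesion on average, as were 1.89% of all genes tested (log2 FC 2.20, FDR 0.0231, and log2 FC 1.89 without that library). Before adhesion Il1a was at 0.364 and 0.295 CPM in WT and 0.694 and 1.02 CPM in E6. After adhesion it was at 2.13 and 0.968 CPM in WT and 4.01 and 4.30 CPM in E6. Some markers of macrophages were higher in the same libraries. Lyz2 and C1qa had 0 counts in all 4 libraries before adhesion. After it Lyz2 was at 0.851 and 1.16 CPM in WT and 6.52 and 5.26 CPM in E6, and C1qa at 0.213 and 0.290 CPM in WT and 2.45 and 1.43 CPM in E6. The sum of the 10 macrophage and dendritic markers matched of 11 listed, most of it Csf1r, was 44.6 to 67.6 CPM before and 45.8 to 64.2 CPM after adhesion, with Fcgr1 and Xcr1 at 0 in all 8 libraries. The part of such cells and of thymocytes in the Il1a levels was not tested. Mdm2, the p53 ubiquitin ligase to which S100 proteins can bind, was at 182 ± 51.2 CPM in WT and 98.3 ± 10.3 CPM in E6 (log2 FC -0.89, FDR 0.0188, and -0.60 with an FDR of 3.67e-09 without replicate 1 of WT after adhesion).

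Of the partners of single members, Anxa2, Anxa1, Myh9 and Fgf1 did not pass the FDR with all libraries. Their changes stayed short of an FC of 1.5 with and without replicate 1 of WT after adhesion. Anxa2, the partner of S100a10, was at 2012 ± 456 CPM in WT and 2188 ± 133 CPM in E6 (log2 FC 0.13, FDR 0.591, and log2 FC -0.01 without that library), and its lowest library, at 1337 CPM, was that replicate. Anxa1, the partner of S100a11, was at 1157 ± 38.8 and 1311 ± 71.1 CPM (log2 FC 0.18, FDR 0.18, and log2 FC 0.18 without it). Myh9, the myosin bound by S100a4, was at 1687 ± 75.7 and 1988 ± 92.2 CPM (log2 FC 0.24, FDR 0.0707, and log2 FC 0.25 without it). Fgf1, released with S100a13, was at 94.6 ± 14.9 and 102 ± 10.02 CPM (log2 FC 0.10, FDR 0.62, and log2 FC 0.26 without it).

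With all libraries Anxa5 (log2 FC -0.53), Trp53 (-0.39), the receptor gene Bsg (-0.45) and Atp2a2 (0.45), the calcium pump on which S100a1 acts, passed the FDR under an FC of 1.5. Of all genes tested 20.9% passed this FDR without the FC limit. The log2 FC of these 4 without replicate 1 of WT after adhesion was -0.44, -0.39, -0.46 and 0.50. None of the 4 receptors, Ager, Tlr4, Bsg and Cd36, was DE with all libraries. Without that library Cd36, a scavenger receptor, was DE and higher in E6 (log2 FC 0.85, FDR 0.0114, against 1.19 with an FDR of 0.113 with all). It was at 0.887 ± 0.529 CPM in WT, the lowest being 0.142 CPM in that library, and at 2.09 ± 0.449 CPM in E6. Tlr4, a receptor for calprotectin, was at 16.9 ± 3.11 CPM in WT and 15.5 ± 1.78 CPM in E6.

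Of the 6 fused-type S100 genes found in the files only Tchh was tested, and it was not DE. Of 17 cornified envelope genes 7 were tested, and 3 were DE in E6 against WT on average. Sprr1a was at 63.9 ± 27.8 CPM in WT and 187 ± 25.7 CPM in E6 (log2 FC 1.60, FDR 0.00172) and Sprr2h at 1.80 ± 1.03 and 4.07 ± 0.83 CPM (log2 FC 1.26, FDR 0.0256), while Sprr1b was lower, at 1.67 ± 0.19 and 0.721 ± 0.21 CPM (log2 FC -1.24, FDR 0.00943). Their log2 FC without replicate 1 of WT after adhesion was 1.86, 1.61 and -1.18, all DE. Over all lists 5 of 34 tested genes were DE, 3 higher and 2 lower, beside 11.3% of all genes, and 6 without replicate 1 of WT after adhesion. This count fell to 1 without WT before replicate 1 or 2, E6 before replicate 2 or E6 after replicate 1 or 2, to 2 without E6 before replicate 1, and rose to 9 without WT after replicate 2. The call of Il1a upon adhesion was likewise lost, to 0 genes, when any library other than those of WT after adhesion was left out.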

How the data were processed

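RNA-Seq libraries of WT mTEC 3.10 and clone E6, before and after thymocyte adhesion, were analysed from the deposited counts. Paired-end reads had been aligned by the authors to mm10 (STAR 2.5.0a, per the labels), and the deposited values are raw HTSeq counts of reads on each gene symbol. The annotation and the strand setting of the counting are not given in the sources used here, and the library kit is named as mRNA in the labels and as total RNA in the paper. Of the alignments, 21.2% to 33.3% were in rows that name no gene and were left out. In replicate 1 of E6 before adhesion 18 symbols turned into dates were restored from the common gene order.

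The test was that of edgeR 4.0.16 in R 4.3.3 (filterByExpr, TMM, quasi-likelihood test, 1 mean per condition over 8 libraries). Of 24052 symbols 11672 were tested. The standard error was the absolute log2 FC divided by the square root of F. An mRNA was called DE at a Benjamini-Hochberg FDR under 0.05 over all tested genes with an FC of at least 1.5. On simulated counts with 200 changed genes the averaged contrast of E6 and WT recovered 96% of 2-fold and 100% of 4-fold changes. The simulated comparisons of 2 libraries with 2 recovered 66% to 69% of 2-fold and 98% to 100% of 4-fold changes. The changed genes were drawn from those above a mean level that S100a3 did not reach. No simulated library was made to stand apart from the others. These rates therefore need not hold for S100a3 or for comparisons that use replicate 1 of WT after adhesion. Positions, lengths and GC content came from GENCODE vM21 on GRCm38, and promoter windows from RefSeq for 9 members.

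The members and gene lists were chosen with earlier results of these data known. All members were named. Listed genes were named when DE in an averaged contrast or when needed to describe a partner or an undetected gene, and Anxa2, Anxa1, Myh9, Fgf1, Tlr4, Cd36, Lyz2, C1qa, S100a14 and the partners named for passing the FDR alone were chosen after their values were seen. The 3 genes most like each of the 2 members with the largest log2 FC were named as well, and the genes around the members are not reported here. Replicate numbers were not taken as pairs. Alternatives were RLE size factors, DESeq2 1.42.0, no filter, a replicate block, a GC correction of the edgeR offsets (lowess span 0.3), only the 4 libraries compared, no FC limit, and each library left out. Leaving out replicate 1 of WT after adhesion together with the FC limit was added after seeing the data. Python 3.11.15, pandas 2.3.3 and matplotlib 3.10.9 drew the figures.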

Additional observations from a re-analysis of the deposited data

Results flagged for a closer look

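Of 32 groups of 4 libraries tested for a library far from the other 3, 6 were marked. Chance marks about 1 in 20 of separate groups of like libraries. The groups here, by genotype or by adhesion state, shared libraries and each pooled 2 conditions, so the 6 marks cannot be set against that rate. In replicate 1 of WT after adhesion S100a11 was at 2484 CPM, far above the other 3 WT libraries and also far above the other 3 libraries after adhesion. In the same library S100a6 was at 191 CPM and S100a16 at 158 CPM, both far below the other 3 WT libraries. S100a6 was at 554 CPM in replicate 2 of E6 before adhesion, far above the other 3 E6 libraries. S100a13 was at 28.5 CPM in replicate 2 of WT after adhesion, far above the other 3 libraries after adhesion, of which 2 are E6 libraries.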

How the results depend on the processing

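Without WT after replicate 2 the number of DE members rose from 0 to 2 for E6 against WT on average and to 4 after adhesion, for adhesion on average and in WT, and for the difference, so leave-one-out counts ranged from 0 to 2 and from 0 to 4. Without the FC limit 1 member was called on average, and without both that limit and replicate 1 of WT after adhesion 7, 4 and 5 in E6 against WT (averaged, before, after) and 1 for adhesion on average and in E6. Listed partner genes ranged from 1 to 9 and for adhesion from 0 to 6 with 1 library left out, and were 9 without the FC limit. With the longest transcript S100a3, S100a6, S100a10 and S100a16 came to 0.613, 579, 777 and 185 CPM per kb.

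Signs turned as follows (log2 FC). S100a3, E6 against WT on average, was 0.027 by DESeq2, 0.021 with the replicate block and 0.019 with block and GC correction. With the GC correction S100a16 was -0.14 in E6 against WT after adhesion and -0.018 in the difference, and S100a1 0.0100 in averaged adhesion, and with the replicate block added these were -0.14, -0.017 and 0.0088. S100a13 was 0.00494 for adhesion in E6 from only the 4 libraries compared. With 1 library left out, E6 against WT on average ranged from -0.43 to 2.00 for S100a3, -0.44 to 0.15 for S100a4, -0.14 to 0.56 for S100a6, -0.75 to 0.15 for S100a11 and -0.14 to 0.12 for S100a16. Before adhesion S100a6 ranged from -0.26 to 0.061. After adhesion S100a3 ranged from -0.63 to 4.22, S100a4 from -0.38 to 0.81, S100a6 from -0.19 to 1.21, S100a11 from -1.70 to 0.11 and S100a16 from -0.20 to 0.32. For the difference S100a3 ranged from -0.40 to 4.44, S100a6 from -0.10 to 1.29, S100a10 from -0.13 to 0.20 and S100a16 from -0.12 to 0.39. For adhesion S100a11 ranged from -0.21 to 0.68 on average and from -0.17 to 1.62 in WT, and in E6 S100a10 from -0.27 to 0.061 and S100a13 from -0.028 to 0.0042. Apart from what the alternatives leave out, the cause was not tested.

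The replicate numbers did not pair the samples (correlations -0.06 to 0.19). With the replicate block the FDR of S100a13, E6 against WT on average, was 0.0578, and 0 members were DE in any comparison. RLE size factors, DESeq2, no filter and the GC correction also called 0 members. Depth limits S100a3, S100a8 and S100a9, and 2 libraries per condition limit the rest. Counts of DE mRNAs over all genes moved further. For E6 against WT they were 1324 on average (671 to 2557 with 1 library left out), 585 before adhesion (37 to 1512, with the block 383, with the GC correction 903, from only 4 libraries 1457) and 1040 after it (27 to 4500, from only 4 libraries 0). For adhesion they were 221 on average (39 to 1341, with the block 139), 0 in WT (0 to 3550, DESeq2 62) and 234 in E6 (0 to 643, with the block 132, from only 4 libraries 537), and for the difference 0 (0 to 3049, DESeq2 2).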
